A study of Mus musculus with 2 samples.

Results

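The genes described here are 10 members of the interleukin-6 cytokine family and its receptors: the ligands Il6, Il11, Lif and Osm, the receptor chains Il6st, Osmr, Lifr, Il6ra and Il11ra1, and the feedback inhibitor Socs3. They were chosen by symbol, all 10 were found among the 32285 genes of the count matrices, and their raw UMIs (unique molecular identifiers, each standing for 1 captured RNA molecule) were summed by cell class and library. Single cells came from the Achilles enthesis, the site where the tendon anchors to the heel bone, of SKG mice, a strain that carries a Zap70 mutation and is prone to autoimmune arthritis. One library was made from mice under tail suspension, which lifts the hind limbs off the ground and unloads them, and 1 from mice without it (non-tail suspension). Both libraries shared the strain, the dissected tissue, collagenase II digestion, red cell lysis, dead cell removal and droplet 3' sequencing on 10x chemistry. How many animals were pooled, their age and sex, and whether arthritis had been induced are not given in the sources used here.

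These cytokines signal through gp130, the protein product of Il6st. Interleukin-6 and interleukin-11 first bind a private chain, Il6ra or Il11ra1, which then recruits a gp130 pair, whereas leukaemia inhibitory factor and oncostatin M engage gp130 together with the product of Lifr or Osmr. The receptors activate JAK kinases and the transcription factor STAT3, and STAT3 induces Socs3, which binds gp130 and shuts the signal off. In inflamed joints, stromal fibroblasts are known sources of interleukin-6, and myeloid cells are known sources of oncostatin M.

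With 1 library in each group no difference between the conditions could be tested, and loading, animal and library cannot be told apart. Levels are given as CPM (a gene's UMIs per 1000000 UMIs counted in the class) with exact Poisson 95% intervals. Ratios are on the log2 scale, with the tail suspension level divided by the other, with exact conditional binomial 95% intervals, and shares of cells have exact Clopper-Pearson intervals. All intervals cover counting error only and not the spread between animals. A difference was called where the log2 ratio was at least 1 in size with at least 20 UMIs over both libraries.

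Of 11430 barcodes in the non-tail suspension library and 15545 in the tail suspension library, 10741 and 13780 were kept, with medians of 4602 and 8339 UMIs per cell. The libraries shared 47 barcode sequences. The kept cells held 110596 and 176432 UMIs of the 10 genes. The makeup of the libraries differed widely: fibroblast-lineage cells were 19.04% of the kept cells in non-tail suspension and 45.73% in tail suspension (2045 and 6302 cells), and neutrophil-like cells were 49.16% and 10.33% (5280 and 1423 cells). Most cells of the classes also lay in different clusters. Among fibroblast-lineage cells, cluster 7 (led by Col1a1, Cxcl5 and Mmp3) held 1250 non-tail suspension and 51 tail suspension cells, while clusters 3, 4, 5, 11, 13 and 17 were mostly tail suspension cells. Among neutrophil-like cells, clusters 0, 1 and 22 were nearly all non-tail suspension, and cluster 10, led by the granule genes Ngp, Camp and Ltf, held 218 and 734 cells. A cluster that is mostly 1 library may stand for that library and not for a cell type, so values within clusters that hold at least 40 cells of both libraries are given beside those of the class.

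The classes were named from markers that include the genes given next, so their levels describe the classes and do not test the names. The tendon and fibroblast collagen gene Col1a1 was at 14241 and 5343 CPM in fibroblast-lineage cells (non-tail suspension first, here and below) against 150.9 and 204.6 CPM in T cell-like cells. The tendon genes Tnmd (114 and 80.47 CPM) and Scx (27.55 and 15.28 CPM) were present in fibroblast-lineage cells. The neutrophil receptor gene Csf3r was at 1123 and 330.4 CPM in neutrophil-like cells, the complement gene C1qa at 6194 and 3281 CPM in macrophage-like cells, and the T cell receptor component Cd3e at 569.8 and 544.4 CPM in T cell-like cells. Clusters without a class name are given by number. Cluster 6 and cluster 12 express MHC class II genes such as Cd74, cluster 12 also Ccl17. Cluster 14 is a shallow stromal cluster led by Apod, Timp3 and Myl9. Its top 50 genes held 7 fibroblast and 3 mural (vessel wall) markers. With Leiden resolution 2.0 a mural cluster led by Rgs5 held 38 and 133 cells, and cluster 14 may mix cell types. The blood endothelial-like class is cluster 21, led by Ccl21a and Fabp4, and it also has lymphatic markers. With Leiden resolution 2.0, a blood endothelial cluster held 84 and 140 cells and a lymphatic endothelial cluster 7 and 144. Levels of this class in the libraries thus compare different mixes of cells. The 6 classes with at least 100 cells in both libraries (fibroblast lineage, neutrophil-like, macrophage-like, T cell-like, cluster 12 and cluster 14) were compared by ratio. For the other classes levels are given.

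**Figure D1:**
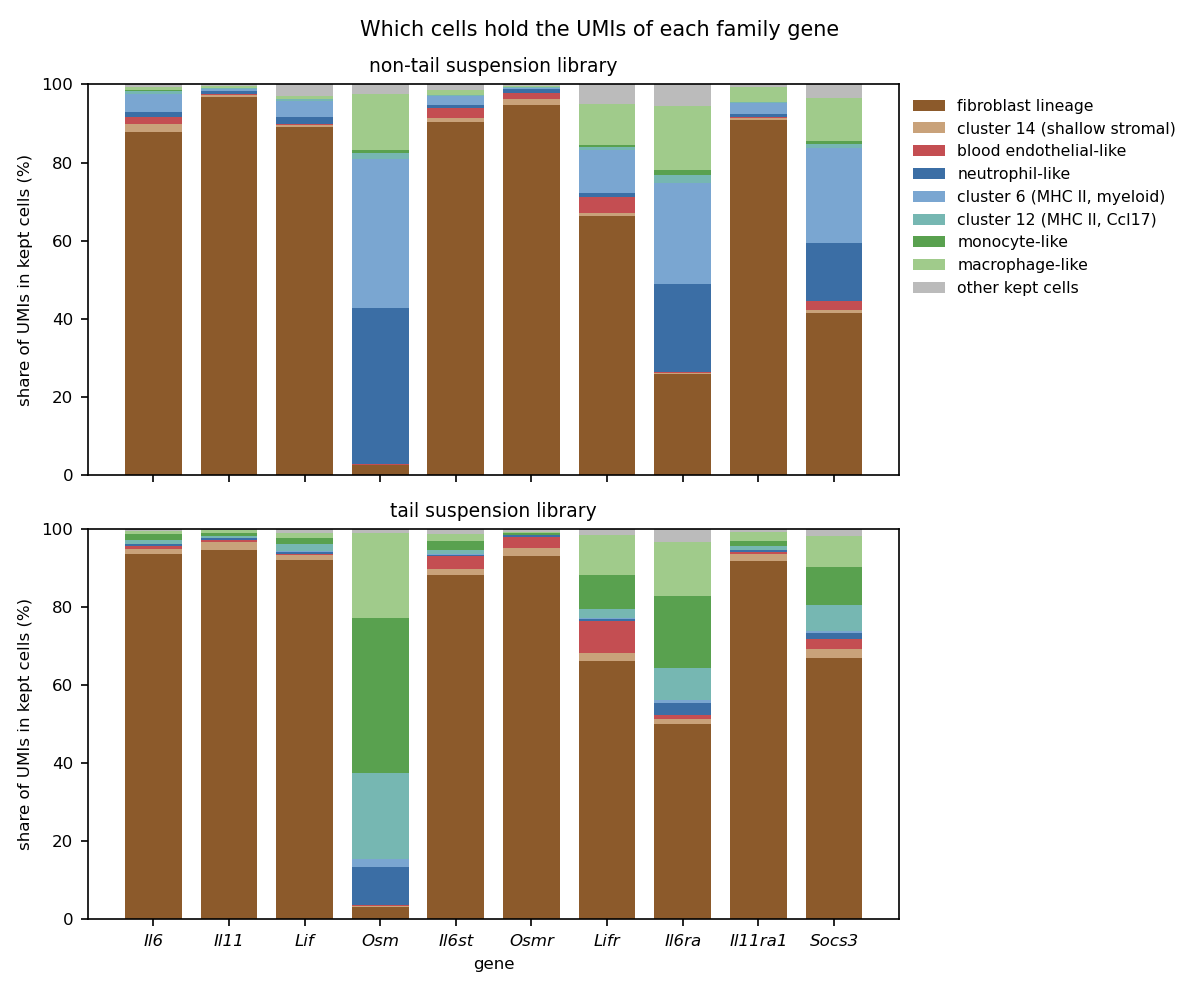
Stacked bars give the share (%) of each gene's UMIs held by each cell class among kept cells, with the non-tail suspension library above and the tail suspension library below. Fibroblast-lineage cells held 87.77% and 93.54% of Il6 UMIs but 2.503% and 3.222% of Osm UMIs, and the Osm bar is split among myeloid classes.

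Short sequences are shown for Il6, the ligand called higher under tail suspension in fibroblast-lineage cells, and for Socs3, the target gene of its pathway. The Socs3 log2 ratio there was -0.42, under the size needed for a call. RefSeq promoter windows on GRCm38.p6 were matched for 9 of the 10 members, in 12 windows, and the first 250 bases of each window, which lie upstream of the start, were searched on both strands for 4 short motifs. The Il6 window is chr5:30012864-30013113 on the plus strand, directly upstream of the gene (chromosome 5, 30013114 to 30019981). Capitals mark, in order, an AP-1 match (TGANTCA), a C/EBP match (TTGNNCAA) and an NF-kB match (GGG, any pair of bases, then TTTCC), which lie 249 to 243, 128 to 121 and 44 to 35 bases upstream of the start.
Il6 promoter: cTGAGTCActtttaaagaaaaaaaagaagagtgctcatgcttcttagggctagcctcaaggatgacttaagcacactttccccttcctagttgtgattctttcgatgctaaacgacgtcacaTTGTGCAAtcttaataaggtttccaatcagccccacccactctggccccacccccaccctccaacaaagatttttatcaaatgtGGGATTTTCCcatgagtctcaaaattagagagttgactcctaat
For Socs3, the stretch around a STAT match (TTCNNNGAA, in capitals) is chr11:117969502-117969530 on the minus strand. It lies 154 to 146 bases upstream of the RefSeq start and, in the gene annotation, inside the Socs3 gene (chromosome 11, 117966079 to 117970047) without touching an exon.
Socs3 stretch: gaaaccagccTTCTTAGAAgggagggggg
Of 32851 such windows over all genes, 7.02% held a STAT match, 1.412% an NF-kB match, 5.65% a C/EBP match and 6.749% an AP-1 match. AP-1 matches also lay in the windows of Il11 (98 to 92 bases upstream) and Lif (228 to 222 bases upstream). These matches describe letters in the windows, and no file here measures binding there.

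Il6 was the ligand with the largest difference in fibroblast-lineage cells. It encodes interleukin-6, the cytokine that drives the hepatic acute phase and many T cell responses. Its level in fibroblast-lineage cells was 171.9 CPM (168.5 to 175.4, 9509 UMIs) in the non-tail suspension library and 601.9 CPM (597 to 606.8, 58242 UMIs) in the tail suspension library, a log2 ratio of 1.81 (1.78 to 1.84). The share of fibroblast-lineage cells with an Il6 UMI was 47.92% and 56.16% at full depth, where the non-tail suspension cells were deeper (medians of 24984 and 12608 UMIs). After each cell was thinned to 1000 UMIs the shares were 12.19% and 26.33%.

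Il6 was higher under tail suspension in all 6 clusters of the fibroblast lineage that hold at least 40 cells of both libraries, by less than in the class as a whole in 5 of them and by more in cluster 11. Cluster 5, led by Apod, Cxcl14, Ccl11 and Ptx3, had the highest level in both libraries (631.3 and 1505 CPM, log2 ratio 1.25). In cluster 11, led by Col1a2, Col1a1 and Fbn1, Il6 was at 125.2 and 528.6 CPM (2.08). The ratio was 1.04 in cluster 3 (Myoc, Igfbp3) and 0.76 in cluster 4, whose leading gene Prg4 encodes the lubricant of the synovial surface. Cluster 7, where most non-tail suspension fibroblast-lineage cells lay, had 202 and 281.4 CPM (0.48), and cluster 18, led by Mgp and the tendon gene Thbs4, had 26.17 and 79.34 CPM (1.60). The mean of these log2 ratios was 1.20 against 1.81 for the class. Other clusters were nearly all tail suspension, among them cluster 13, led by the adventitial gene Pi16, with 772.6 CPM, and cluster 17, led by Angptl7, Comp and Chad, with 104.2 CPM in the tail suspension library.

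Il6 UMIs were concentrated in few cells. The 5% of fibroblast-lineage cells with the most Il6 UMIs held 45.75% of them in non-tail suspension and 40.61% in tail suspension, and the highest single cells had 120 and 222 UMIs. Cells with at least 5 Il6 UMIs were 22.49% and 32.32% of fibroblast-lineage cells. The larger tail suspension level was therefore spread over more cells, and the top cells held a slightly smaller share of it.

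Among classes with at least 50 cells in both libraries, the stromal and endothelial cells had the highest Il6 levels. In the non-tail suspension library the order was cluster 14 (416.6 CPM), fibroblast lineage (171.9 CPM), blood endothelial-like cells (143.5 CPM), monocyte-like cells (75.43 CPM), cluster 12 (53.9 CPM), cluster 6 (26.28 CPM) and cluster 23 (10.74 CPM). Neutrophil-like (7.342 CPM), T cell-like (6.327 CPM), macrophage-like (5.612 CPM) and B cell-like cells (5.091 CPM) followed, with overlapping intervals. In the tail suspension library fibroblast-lineage cells came first, followed by cluster 14 (309.1 CPM), blood endothelial-like (165.2 CPM), monocyte-like cells (73.67 CPM) and cluster 12 (72.85 CPM), the last pair with overlapping intervals. Smaller classes had 140.5 CPM (mast or basophil-like, 14 UMIs) and 74.18 CPM (adipocyte-like, 55 UMIs) under tail suspension. Of the 6 compared classes, cluster 14 had a ratio under 0, at -0.43 (-0.64 to -0.22).

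Macrophage-like, T cell-like and neutrophil-like cells also had more Il6 under tail suspension, at levels that B cell-like cells shared, whereas monocyte-like cells did not (-0.03, -0.49 to 0.46) and cluster 12 differed less (0.43, 0.11 to 0.77). The log2 ratio was 2.85 (2.47 to 3.25) in macrophage-like, 2.31 (1.61 to 3.08) in T cell-like and 2.24 (1.94 to 2.56) in neutrophil-like cells, with tail suspension levels of 40.41, 31.32 and 34.79 CPM. B cell-like and NK or ILC-like cells were at 45.38 and 23.89 CPM in that library and 5.091 and 1.41 CPM in the other. The fibroblast gene Dcn was higher in the same cells, at 58.14 and 270.2 CPM in macrophage-like, 94.57 and 484 CPM in T cell-like, 188.1 and 629 CPM in neutrophil-like and 71.27 and 711.4 CPM in B cell-like cells. Another fibroblast gene, Pdgfra, was at 1.998 and 15.99 CPM in T cell-like and 2.982 and 11.82 CPM in macrophage-like cells. Col1a1 was lower in fibroblast-lineage cells under tail suspension. It was at 94.71 and 125.3 CPM in macrophage-like, 150.9 and 204.6 CPM in T cell-like and 250.9 and 229.3 CPM in neutrophil-like cells. Free RNA released by broken cells gives every droplet some UMIs of abundant genes, and shares of cells with an Il6 UMI were 21.19% in macrophage-like, 12.72% in neutrophil-like, 13.43% in T cell-like and 11.3% in B cell-like cells under tail suspension. The macrophage-like, neutrophil-like and lymphocyte CPM levels of Il6 lay near each other in that library. Dcn thus moved with Il6 in these leukocytes, while Col1a1 differed less and went the other way in neutrophil-like cells. The part of fibroblast transcripts in the Il6 ratio was not tested.

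**Figure D2:**
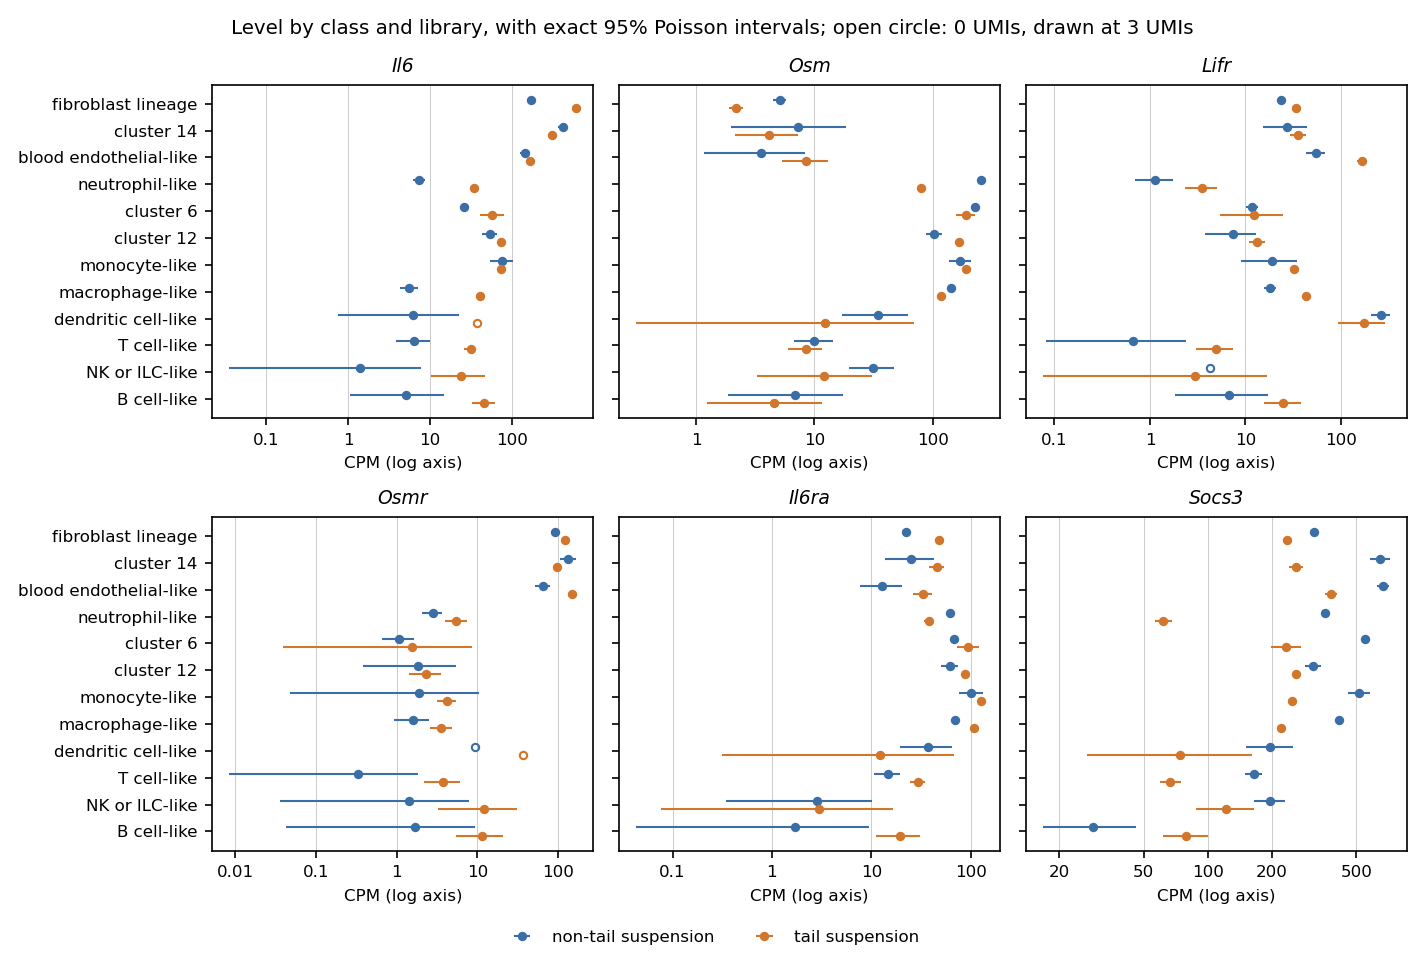
Points give the level in CPM (log axes) of Il6, Osm, Lifr, Osmr, Il6ra and Socs3 in 12 cell classes, with the non-tail suspension library in blue, the tail suspension library in orange and exact 95% Poisson intervals as lines. Open circles mark classes with 0 UMIs, drawn at the level of 3 UMIs. Il6 and Osmr are highest in stromal and endothelial classes, Osm in myeloid classes, and Socs3 is lower under tail suspension in all classes drawn but B cell-like cells.

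Il11 and Lif, the other stromal ligands, did not share the difference of Il6. Interleukin-11 acts on stromal and skeletal cells, and leukaemia inhibitory factor on many tissues including bone. Il11 in fibroblast-lineage cells was at 28.89 and 23.02 CPM (1598 and 2227 UMIs), a log2 ratio of -0.33 (-0.42 to -0.23). Lif was at 49.29 and 40.15 CPM (2726 and 3885 UMIs), a log2 ratio of -0.30 (-0.37 to -0.22). Fibroblast-lineage cells held 96.91% and 94.69% of Il11 UMIs and 89.2% and 92.19% of Lif UMIs.

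The clusters behind these small class ratios moved in opposite directions. Il11 was lower under tail suspension in the Prg4 cluster 4 (65.95 and 23.35 CPM, -1.50) and higher in cluster 7 (32.25 and 81.67 CPM, 1.34). Lif was higher in cluster 5 (9.649 and 74.57 CPM, 2.95, interval 1.90 to 4.27) and cluster 11 (15.76 and 53.59 CPM, 1.77). It was lower in cluster 18 (12.09 and 4.176 CPM, -1.53, interval -3.01 to -0.37), on 127 and 6 UMIs, and in cluster 4 (-0.48, -0.70 to -0.26). In cluster 7 the ratio was -0.36, with an interval that included 0 (-0.75 to 0.01). The mean of the log2 ratios within clusters was 0.58 for Lif and 0.59 for Il11, and without cluster 7 the class ratios were 0.95 and 0.01. The Il11 mean includes cluster 3 at 2.44 (-0.06 to 7.76), on 1 and 135 UMIs. Of the 6 Il11 intervals 1 lay above 0 and 1 under 0. Lif in clusters 3 and 5 rested on 4 and 7 UMIs in non-tail suspension. The class ratios of both genes therefore depended on the clusters compared.

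Both ligands were held by very few cells. The 5% of fibroblast-lineage cells with the most UMIs held 62.66% and 77.68% of Lif and 84.54% and 87.88% of Il11. After thinning to 1000 UMIs, 3.271% and 2.665% of fibroblast-lineage cells had a Lif UMI, and 1.586% and 1.493% an Il11 UMI. In macrophage-like cells both genes rested on few UMIs: 7 and 19 for Il11, 18 and 49 for Lif.

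**Figure D3:**
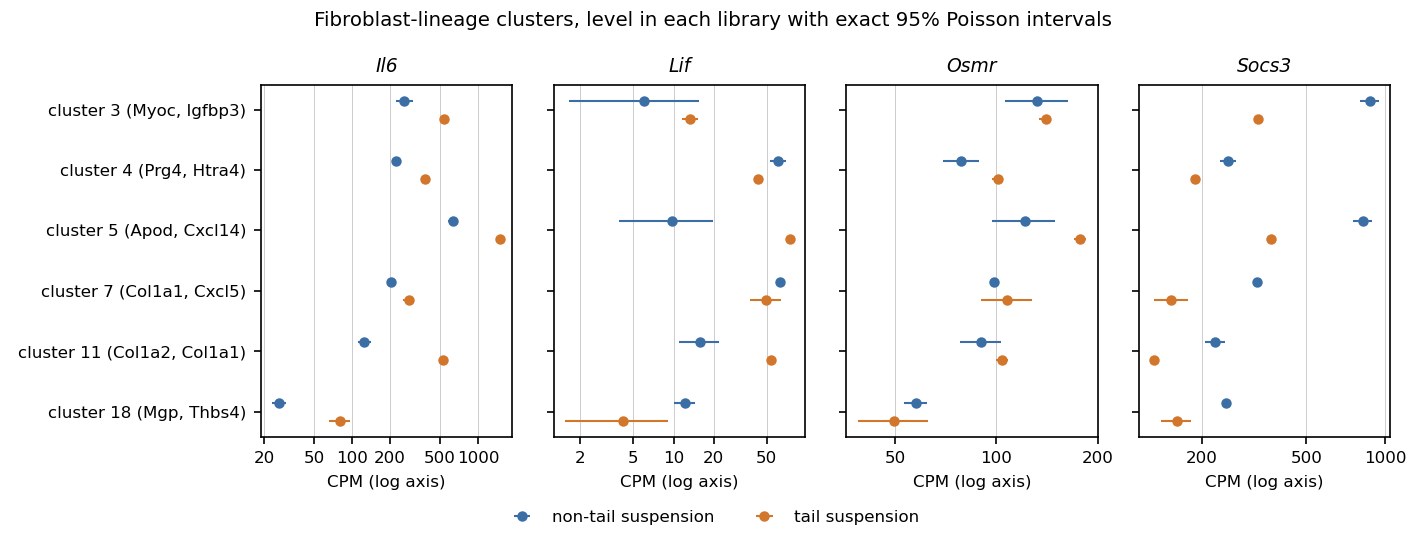
Points give the level in CPM (log axes) of Il6, Lif, Osmr and Socs3 in the 6 fibroblast-lineage clusters with at least 40 cells of both libraries, with exact 95% Poisson intervals. Il6 is higher and Socs3 lower under tail suspension in each cluster, and Osmr differs little. Lif is higher in clusters 3, 5 and 11 and lower in clusters 4, 7 and 18, with ratio intervals that include 0 in clusters 3 and 7.

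Within fibroblast-lineage cells, Lif and Il6 were found together more often than either share alone gives. With every cell thinned to 2000 UMIs, 16.87% of 1998 non-tail suspension cells and 34.81% of 5986 tail suspension cells had an Il6 UMI. Among cells with a Lif UMI, Il6 was present in 46 of 123 in non-tail suspension (37.4%, 28.84 to 46.58) and 206 of 283 in tail suspension (72.79%, 67.21 to 77.89). Among Il11-positive cells, Il6 was present in 29.63% (17.98 to 43.61) and 53.15% (44.63 to 61.53). Socs3-positive cells had Il6 in 19.93% (17.24 to 22.83) and 38.89% (36.72 to 41.09). Both were slightly above the shares in all fibroblast-lineage cells, which lay under these intervals. These cells share 1 library and their clusters, so the shares are a description.

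Osm, which encodes oncostatin M, was found in myeloid cells. Its level in neutrophil-like cells was 256.9 CPM (249.5 to 264.5, 4514 UMIs) in non-tail suspension and 78.94 CPM (72.91 to 85.34, 633 UMIs) in tail suspension, a log2 ratio of -1.70 (-1.82 to -1.58). After thinning to 1000 UMIs, 20.5% and 8.83% of neutrophil-like cells had an Osm UMI. The clusters differed in this gene within a library as well. Under tail suspension cluster 10, led by granule genes of less mature neutrophils, had 57.67 CPM. Cluster 16 had 151.4 CPM and cluster 0 had 167 CPM, the latter on 15 UMIs.

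In the neutrophil-like clusters with at least 40 cells of both libraries the ratio was smaller in size. It was -0.80 (-1.64 to -0.07) in cluster 0 (290.4 and 167 CPM), on 2125 and 15 UMIs. The cluster 0 interval is wide and meets that of the class. In cluster 10 (124.4 and 57.67 CPM) the ratio was -1.11 (-1.33 to -0.88), and the mean over these clusters was -0.95. Without cluster 10 the class ratio was -0.90. The same cells differed in genes known to respond to tissue dissociation: of 22 such genes measured in neutrophil-like cells, 0 were called higher and 12 lower, beside 17.2% and 14.1% of all genes, and their summed level was 11387 and 3518 CPM. Their part in the Osm ratio was not tested.

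The other myeloid classes kept their Osm levels closer together. Macrophage-like cells were at 142.1 and 116.8 CPM (-0.28, -0.39 to -0.18), although the ratio was above 0 in both of their clusters: 0.23 (-0.13 to 0.61) in cluster 8, which held 69 and 1105 cells, and 0.58 (0.17 to 0.96) in cluster 15, which held 720 and 18 cells. In cluster 12 Osm was higher under tail suspension, at 102.3 and 165.5 CPM (0.69, 0.46 to 0.93). Monocyte-like cells were at 169.7 and 192.1 CPM and cluster 6 at 227.3 and 189.7 CPM.

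The Osm UMIs lay in different classes and clusters of the libraries, whose makeup differed. In non-tail suspension 40.21% lay in neutrophil-like cells and 38.06% in cluster 6. In tail suspension 39.84% lay in monocyte-like cells, 22.06% in cluster 12 and 21.68% in macrophage-like cells. Cluster 6 has no class name, but monocyte was its best match, with 5 monocyte markers in its top 50 genes. The monocyte-like cluster 2 also had 5. With Leiden resolution 2.0 a monocyte cluster held 705 and 32 cells. Cluster 6 and the monocyte-like class may thus share cell types, and a change of source cell was not tested. Over all kept cells Osm was at 96.21 and 42.61 CPM (-1.17). In fibroblast-lineage cells Osm was at 5.08 and 2.17 CPM (-1.23, 281 and 210 UMIs), under the T cell-like level of 9.99 and 8.44 CPM. Blood endothelial-like cells were at 3.57 and 8.521 CPM. Of 18 leukocyte transcripts measured in fibroblast-lineage cells, 17 had ratios under 0, where 54.43% of all genes lay above 0. Their summed level was 2928 and 1421 CPM, with the pan-leukocyte gene Ptprc at 14.43 and 9.632 CPM. Their part in the Osm ratio of these cells was not tested.

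Il6st, the gp130 chain used by every ligand above, was a stromal and endothelial transcript in these libraries. Fibroblast-lineage cells had 308.8 and 234.6 CPM (-0.40, -0.42 to -0.37) and held 90.37% and 88.16% of its UMIs. The ratio was under 0 in each of the 6 clusters with at least 40 cells of both libraries (lowest -0.78, cluster 7; highest -0.09, cluster 4), and 5 of the intervals lay under 0. Without cluster 7 the class ratio was 0.22, above 0. In cluster 17, with 17 and 538 cells, Il6st was at 140.3 and 205.8 CPM (0.55, 0.06 to 1.08). Blood endothelial-like cells were at 349.9 and 335.2 CPM, with overlapping intervals, and cluster 14 at 337.2 and 150 CPM (-1.17).

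Leukocytes had little Il6st: 8.594 and 12.35 CPM in neutrophil-like, 18.94 and 39.99 CPM in macrophage-like (1.08), 24.31 and 31.1 CPM in T cell-like and 44.12 and 62.4 CPM in B cell-like cells. In neutrophil-like cells thinned to 2000 UMIs, 1.799% and 2.298% had an Il6st UMI. Among those with an Il6ra UMI the shares were 1.429% and 2.679%, so the private and the shared chain were rarely detected in 1 neutrophil-like cell at this depth.

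Osmr, the private chain for oncostatin M, was found in the same structural classes. It was at 90.34 and 122.6 CPM in fibroblast-lineage cells (0.44, 0.39 to 0.49), which held 94.78% and 93% of its UMIs. By cluster, its ratio was lowest in cluster 18 (-0.22) and highest in cluster 5 (0.55). Of the 6 intervals 2 lay above 0, and the mean ratio was 0.19. Blood endothelial-like cells had 64.27 and 147.7 CPM, from 90 and 284 cells, a class whose lymphatic part was mostly tail suspension. Neutrophil-like (2.789 and 5.487 CPM), macrophage-like (1.578 and 3.553 CPM) and T cell-like cells (0.333 and 3.776 CPM) had little, and Osm and its receptor chain were thus highest in different classes.

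Lifr, the chain for leukaemia inhibitory factor, had a wider range of classes. Fibroblast-lineage cells had 23.67 and 34.15 CPM (0.53, 0.44 to 0.62) and held 66.38% and 66.17% of its UMIs. By cluster, the ratio ran from -0.13 in cluster 7 to 1.61 in cluster 18. It was above 0 in 4 of the 6 clusters and under 0 in 2, and 2 of the 6 intervals lay above 0. Levels were higher in blood endothelial-like cells (54.99 and 164.7 CPM) and in the dendritic cell-like cluster led by Siglech (261.7 and 172.5 CPM, from 38 and 13 cells). Macrophage-like cells had 18.15 and 42.97 CPM (1.24, 1.01 to 1.48), while neutrophil-like (1.138 and 3.492 CPM) and T cell-like cells (0.666 and 4.886 CPM) had little. Within the fibroblast lineage, cluster 17 (Angptl7, Chad) had 116.3 CPM in tail suspension, above the class level.

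Il6ra, the interleukin-6 binding chain, was the receptor gene with the largest difference in fibroblast-lineage cells. Its level there was 22.62 and 47.93 CPM (1251 and 4638 UMIs), a log2 ratio of 1.08 (0.99 to 1.17), and after thinning to 1000 UMIs 2.478% and 5.411% of cells had an Il6ra UMI. The ratio was above 0 in 5 of 6 clusters, from -0.37 in cluster 18 to 1.18 in cluster 3, with a mean of 0.61, under the size needed for a call. The Pi16 cluster 13 had 47.27 and 90.74 CPM. The counted region overlaps an antisense gene, Gm42809, and strand use in the counting is not given in the sources used here.

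Myeloid cells had more Il6ra than fibroblast-lineage cells in non-tail suspension. Monocyte-like cells had 101.8 and 125.9 CPM, macrophage-like cells 70.33 and 107.5 CPM (0.61, 0.48 to 0.74), cluster 6 67.66 and 94.85 CPM, and cluster 12 61.86 and 87.93 CPM (0.51). Neutrophil-like cells had 62.1 and 37.79 CPM (-0.72, -0.91 to -0.53), the only compared class with a negative ratio. The clusters with at least 40 cells of both libraries did not show that sign. Il6ra was at 77.08 and 77.94 CPM in cluster 0 (0.02, -1.31 to 1.07), on 564 and 7 UMIs. That interval is wide and includes the class ratio. In the granule-gene cluster 10 Il6ra was at 22.14 and 30.86 CPM (0.48, 0.04 to 0.94), and the mean ratio was 0.25. Fibroblast-lineage cells held 25.68% of Il6ra UMIs in non-tail suspension and 49.95% in tail suspension, and neutrophil-like cells 22.4% and 3.263%.

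Il11ra1, the interleukin-11 binding chain, was mostly a fibroblast-lineage transcript (90.98% and 91.93% of its UMIs). It was at 173.4 and 135.1 CPM in the class (-0.36, -0.40 to -0.32) and lower under tail suspension in each of the 6 clusters, all with intervals under 0 (-1.02 in cluster 3 and -0.45 in cluster 11 being the extremes). Cluster 5 had 609.3 and 307.1 CPM. Its counts are uncertain, since 60.02% of the 50-base words of its longest transcript also occur in Gm13305 or Il11ra2, and 31.04% of those in its last 500 bases.

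Socs3, the feedback inhibitor that STAT3 induces, was lower under tail suspension in all 6 compared classes. Fibroblast-lineage cells had 315.9 CPM (311.2 to 320.6, 17471 UMIs) and 235.7 CPM (232.6 to 238.8, 22805 UMIs), a log2 ratio of -0.42 (-0.45 to -0.39). After thinning to 1000 UMIs, 24.73% and 21.79% of these cells had a Socs3 UMI. The intervals lay under 0 in all 6 clusters: -1.42 in cluster 3 (870.9 and 326.4 CPM), -1.16 in cluster 5 (818.8 and 367.4 CPM), -1.09 in cluster 7 (324.2 and 152.8 CPM), -0.76 in cluster 11, -0.63 in cluster 18 and -0.42 in cluster 4. The mean of these was -0.91, larger in size than the class ratio. Il6 and Socs3 thus differed in opposite directions in the same 6 clusters.

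In leukocytes the Socs3 ratio was -2.53 (-2.66 to -2.40) in neutrophil-like cells (357.8 and 61.98 CPM), -0.91 (-0.98 to -0.84) in macrophage-like cells (413.8 and 220.5 CPM) and -1.30 (-1.51 to -1.09) in T cell-like cells (164.8 and 66.85 CPM). As for Osm, cluster makeup mattered in neutrophil-like cells: the ratio was -0.36 (-0.95 to 0.18) in cluster 0 and -1.10 in cluster 10, where Socs3 was at 60.38 and 28.1 CPM. Cluster 12 had 313.6 and 260.1 CPM (-0.27) and cluster 14 had 647.4 and 260.7 CPM (-1.31). Of classes not compared, blood endothelial-like cells had 665.5 and 379.8 CPM and monocyte-like cells 514.8 and 248.5 CPM, while B cell-like cells went the other way, at 28.85 and 79.42 CPM from 90 and 319 cells.

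Of 22 dissociation-response genes measured in fibroblast-lineage cells, 0 were called higher and 5 lower, beside 10.3% and 6.25% of 16461 genes. Their ratios were above 0 for 5 and under 0 for 17, beside 54.43% of all genes above 0, with a summed level of 16611 and 12733 CPM. The immediate-early genes Jund (1114 and 453.5 CPM, -1.30), Dusp1 (1090 and 463.9 CPM, -1.23), Ier2 (586.6 and 266.4 CPM, -1.14) and Klf2 (577.2 and 262.7 CPM, -1.14) had the largest differences. Whether they share a source with the Socs3 difference was not tested.

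**Figure D4:**
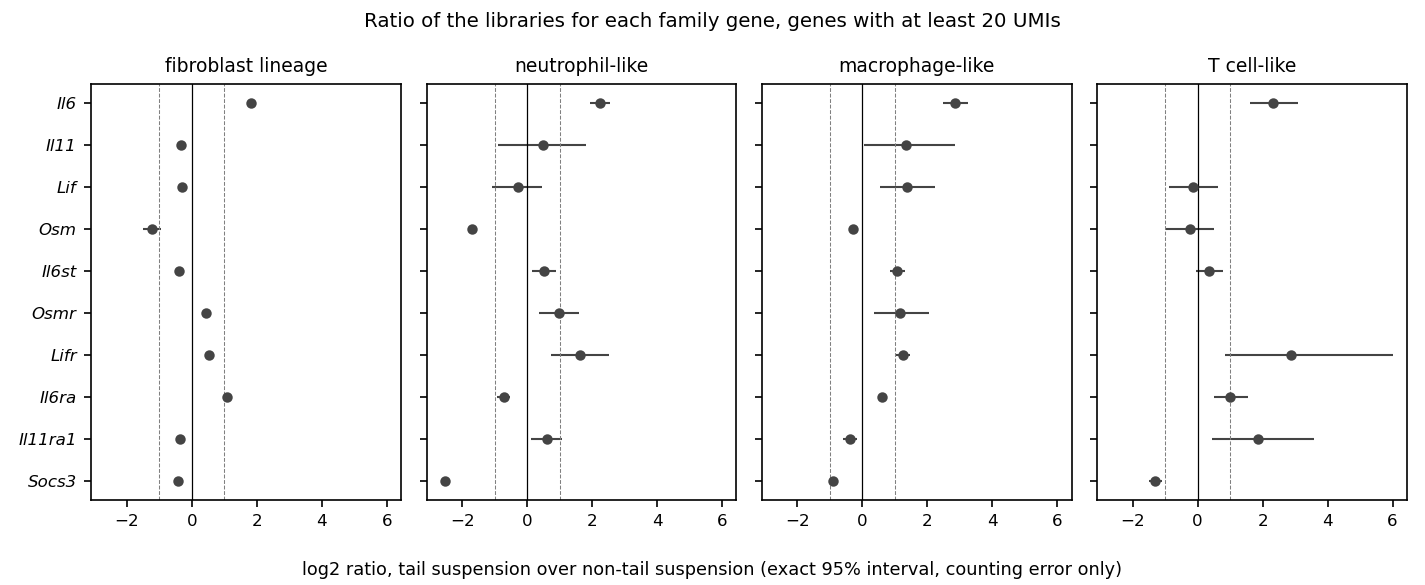
Points compare the libraries as a log2 ratio, tail suspension divided by non-tail suspension, for each gene with at least 20 UMIs in 4 cell classes, with exact 95% intervals for counting error. Dashed lines mark a ratio of 1 in size. Il6 lies right of 1 in all 4 classes, at 1.81 to 2.85, and Socs3 lies left of 0 in all 4.

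As a set, the 10 genes did not differ in 1 direction in fibroblast-lineage cells. There 2 of 10 were called higher (Il6 and Il6ra) and 1 lower (Osm, at 5.08 and 2.17 CPM), beside 10.3% and 6.25% of 16461 genes measured, and the median ratio was -0.32 beside 0.06 for all genes. In neutrophil-like cells 2 of 10 were called higher (Il6 and Lifr) and 2 lower (Osm and Socs3), beside 17.2% and 14.1% of all genes. In macrophage-like cells 6 of 10 were called higher (Il6, Il11, Lif, Il6st, Osmr and Lifr) and 0 lower, beside 16.4% and 3.76%, with a median of 1.12 beside 0.31. Median-of-ratios scaling lowers every macrophage-like ratio by 0.25, and Il6st (0.82), Osmr (0.92) and Lifr (0.99) then lie under 1. The libraries' macrophage-like cells also lay in different clusters. In cluster 8, the one with at least 40 cells of both libraries, Il6 kept a ratio over 1 (2.16, 1.03 to 3.61), while Il6st was at 0.32, Lifr at 0.43 and Lif at -0.88, and Il11 and Osmr had 0 UMIs in non-tail suspension. In cluster 15 Il6st was at 0.94 and Lifr at 0.83.

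In T cell-like cells 4 of the 8 measured genes were called higher (Il6, Lifr, Il6ra and Il11ra1) and 1 lower (Socs3), beside 8.53% and 4.72% of all genes. Within cluster 9, the T cell-like cluster with at least 40 cells of both libraries (99 and 909 cells), the ratio was 1.85 for Il6, 1.77 for Il6ra and -1.33 for Socs3. Il11ra1 was at 5.796 and 6.083 CPM there (0.07, -1.45 to 2.05), and Lifr rested on 1 and 22 UMIs. In cluster 12 the numbers were 0 and 0 of 9, beside 10.4% and 6.16%. In cluster 14 they were 0 higher and 2 lower (Il6st and Socs3) of 9, beside 15.6% and 10.1%. Over all kept cells, where the makeup of the libraries enters, 1 was called higher (Il6, 92.85 and 407.1 CPM) and 1 lower (Osm) of 10, beside 13% and 7.13%.

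Among the other ligands and receptors of the family, 8 of 11 listed genes were measured in fibroblast-lineage cells. Of these 2 were called higher and 3 lower, beside 10.3% and 6.25% of all genes measured. The cardiotrophin gene Ctf1 was at 3.164 and 0.8578 CPM (-1.88). Cntfr, the ciliary neurotrophic factor receptor, was at 1.573 and 5.88 CPM (1.90). Of 15 JAK and STAT genes of the intracellular chain, 0 were called higher and 1 lower, beside the same shares of all genes. Their median ratio was 0.05 beside 0.06 for all genes, and their summed level was 956.8 and 956.5 CPM. Stat3 was at 158.2 and 182.3 CPM (0.20) and Jak1 at 226.7 and 256.4 CPM. Of 16 genes for brakes on the pathway and receptor shedding, 0 were called higher and 1 lower, again beside 10.3% and 6.25%. The lower one was the phosphatase gene Ptpn6 (6.382 and 2.666 CPM, -1.26), and the list's median was 0.10.

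Known response genes of gp130 and STAT3 lay near the shares of all genes in fibroblast-lineage cells: 5 of 35 were called higher and 1 lower, beside 10.3% and 6.25%. Ratios were above 0 for 20 and under 0 for 15, beside 54.43% of all genes above 0, and the median was 0.33 beside 0.06. The iron-binding acute phase gene Lcn2 was at 800.2 and 2053 CPM (1.36), the ceruloplasmin gene Cp at 94.45 and 238 CPM (1.33), Saa1 at 32.81 and 82.03 CPM (1.32) and the protease inhibitor gene Serpina3n at 693 and 1495 CPM (1.11). The one called lower was Serpina3g (14.25 and 4.051 CPM, -1.81). Saa and Serpina3 genes have near-identical copies, so their counts are uncertain.

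In neutrophil-like cells 6 of 32 response genes were called higher and 11 lower, beside 17.2% and 14.1% of all genes, with a median of -0.52 beside 0.13 for all genes. The lower ones were led by Pim1 (3729 and 563.1 CPM, -2.73), a kinase gene, and by the transcription factor genes Cebpb (9394 and 1801 CPM, -2.38), Junb (3284 and 665.3 CPM, -2.30) and Arid5b (254 and 54.37 CPM, -2.22). The higher ones were led by Cp (2.24), Serpina3n (2.05), Lbp (61.41 and 166.6 CPM, 1.44) and Lcn2 (3520 and 9100 CPM, 1.37). Of the 20 inducers of Il6 and regulators of its mRNA measured in these cells, 0 were called higher and 13 lower, with a median of -1.36, and of 15 JAK and STAT genes 0 were called higher and 3 lower.

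In macrophage-like cells 10 of 33 response genes were called higher and 3 lower, beside 16.4% and 3.76% of all genes, with a median of 0.54 beside 0.31. Serpina3n (5.7 and 36.69 CPM, 2.69), Tnfaip6 (15.35 and 53.63 CPM, 1.81), Lrg1 (28.59 and 84.2 CPM, 1.56) and Timp1 (54.02 and 156.2 CPM, 1.53) led the higher ones. Serpina3g (132.5 and 6.776 CPM, -4.29), Il21r (-1.28) and the kinase gene Pim3 (162.7 and 79.66 CPM, -1.03) were the lower ones. Several of the higher genes are also fibroblast genes, and in T cell-like cells Serpina3n was at 8.658 and 72.63 CPM and Timp1 at 30.97 and 128.8 CPM. The part of free RNA in the macrophage-like ratios was not tested.

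Of 23 inducers of Il6 and regulators of its mRNA measured in fibroblast-lineage cells, 0 were called higher and 4 lower, beside 10.3% and 6.25% of all genes, with a median of -0.05 and a summed level of 4212 and 3251 CPM. The inflammatory cytokine genes Il1b (124.6 and 21.92 CPM, -2.51) and Il1a (2.531 and 1.023 CPM, -1.31) were among the lower ones, as was Nfkbia, an inhibitor of NF-kB (1527 and 675.4 CPM, -1.18). Il1b is also a leukocyte transcript, and of the 18 leukocyte transcripts measured in these cells 0 were called higher and 11 lower. Its ratio was the largest in size, with Csf3r (-2.49), Cxcr2 (-2.24) and Cd74 (-2.03) next after it.

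The genes whose levels followed a family gene most closely over the 12 points of 6 classes and 2 libraries were ranked by Pearson's r on log2(CPM + 10) among 11654 genes. For Osm these were Nlrp3 (0.988), Syk (0.981), Lyn (0.977), Fcer1g (0.976) and Ptafr (0.975), which are known myeloid genes. For Osmr they were Ntrk2 and Gstm2 (0.998 each), then Tbx18, Ehd2 and Dlc1 (0.997 each). For Il6 they were Slc30a4 (0.962), Atp8b1 (0.952), Arhgef40 (0.951), Zfp518b (0.951) and Ank2 (0.946). Il6ra was followed most closely by Mtm1 (0.955), Timm10b (0.944), Atp6v0a1 (0.939), Slc6a6 (0.939) and Sh2b2 (0.905), and those near Socs3 included Maff (0.942), Clip2 (0.902), Napa (0.872) and Spop (0.856). The points of 1 library share its depth, so these values are a description.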

How the data were processed

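Droplet 3' libraries, 1 per group, were processed with Cell Ranger 5.0.1 against GRCm38, per the submitters' processing notes. The deposited matrices hold raw UMI counts per gene and barcode. No depth correction or replicate error is contained in them.

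Barcodes with fewer than 300 genes or more than 20% mitochondrial UMIs were left out. Scrublet's own threshold marked 0 cells in one library, so doublets were removed at a score of 0.3 in both (206 and 703 cells), a limit set after seeing the data. Both libraries were clustered together with scanpy 1.11.5 (2000 variable genes, the members left out, 30 components, Leiden resolution 1.0), which gave 29 clusters. These were named from fixed markers of 22 classes where a class had at least 2 markers among a cluster's top 10 genes, more than any other class, and at least 3 among the top 50, a naming rule also set after seeing the data.

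UMIs were summed per class and library. Interval code was tested on simulated counts. The list genes named in the text were those with 100 UMIs or more in the class and a log2 ratio of at least 1 in size, up to 4 per direction, from 7 lists of 140 genes; some genes that met a naming rule are not reported here. Members and lists were chosen with earlier results of these data known. Alternatives covered scaling, depth, cell filters, doublets, clustering, class gates and cluster makeup. Python 3.11.15, numpy 2.4.6, scipy 1.17.1 and pandas 2.3.3 were used. Promoter windows came from RefSeq tables on GRCm38.p6.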

Additional observations from a re-analysis of the deposited data

Results flagged for a closer look

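For 8 genes the log2 ratio of the libraries had opposite signs in a pair of cell classes, with intervals for counting error that did not meet 0. With 1 library per group none of these differences was tested. Among the ligands, Il6 differed by 3.28 between macrophage-like cells (2.85) and cluster 14 (-0.43). Il11 differed by 1.68 and Lif by 1.66 between macrophage-like cells (1.35 and 1.36) and fibroblast-lineage cells (-0.33 and -0.30). In macrophage-like cells these rest on 7 and 19 UMIs for Il11 and 18 and 49 for Lif. Osm differed by 2.39 between cluster 12 (0.69) and neutrophil-like cells (-1.70). Among the receptor chains, Il6st differed by 2.25 between macrophage-like cells (1.08) and cluster 14 (-1.17), and Osmr by 1.62 between the same classes (1.17 and -0.45). Il6ra differed by 1.80 between fibroblast-lineage cells (1.08) and neutrophil-like cells (-0.72). Il11ra1 differed by 2.24 between T cell-like cells (1.85, on 5 and 27 UMIs) and macrophage-like cells (-0.39), and within cluster 9, the T cell-like cluster with enough cells of both libraries, it was 0.07.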

How the results depend on the processing

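Of 460 values recomputed under an alternative, 349 moved by less than their counting error, 93 moved further and 18 changed direction. The cause was not tested for any of them. The Il6 ratio in fibroblast-lineage cells (1.81) was 1.85 without mitochondrial, ribosomal protein and haemoglobin genes, 1.76 with doublets kept, 1.85 under a per-cell marker gate, 2.45 without cluster 7 and 1.20 as the mean within clusters. Osmr there (0.44) was 0.21 in thinned cells, 0.74 without cluster 7 and 0.19 within clusters. Socs3 there (-0.42) was -0.38 without those gene groups, -0.18 thinned, -0.39 gated, -0.34 without cluster 7 and -0.91 within clusters. Lif there (-0.30) turned to 0.95 without cluster 7 and 0.58 within clusters, Il11 to 0.01 and 0.59, and Il6st to 0.22 without cluster 7. The Il11 mean within clusters includes cluster 3, with 1 UMI in non-tail suspension. In neutrophil-like cells Osm (-1.70) was -1.83 under median-of-ratios scaling, -1.38 thinned, -1.54 gated, -0.90 without cluster 10 and -0.95 within clusters. Il6ra there (-0.72) was -0.52 thinned, -0.24 gated, -0.18 without cluster 10 and 0.25 within clusters. Values on few UMIs also turned: Il11 (-0.16 with doublets kept) and Lif (0.81 thinned, 0.56 without cluster 10) in neutrophil-like cells, and Lif in macrophage-like cells (-0.10 at Leiden resolution 0.5, -0.88 within clusters). Osm in macrophage-like cells was 0.23 within clusters. In T cell-like cells Lif was 0.04 without those gene groups, 0.33 with doublets kept, 0.23 with separate clustering of the libraries and 0.94 within clusters, and Osm was 0.56 with doublets kept and 0.06 at resolution 2.0. The number of members called in fibroblast-lineage cells was the same under median-of-ratios scaling and with no UMI minimum. Leaving out clusters 7 and 10 was chosen after seeing the data. No paired analysis was possible because each group holds 1 library. Depth limits Il11, Lif, Osmr and Lifr in leukocytes, where levels rest on few UMIs.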
